A study of Mus musculus with 10 samples.

Results

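Gal-3+ macrophages sorted from the hindlimb muscle of mdx mice were compared with skeletal muscle-resident macrophages (SkMRMs) sorted from wild-type (WT) mice. The members are the 4 gal-3+ libraries and the 3 SkMRM libraries of the bulk RNA table, chosen by the population in the column name, or 7 of its 10 libraries. The other 3 libraries are of monocyte-derived macrophages (MDMs) from mdx mice. Gal-3+ macrophages came from C57BL/10ScSn-Dmdmdx/J mice, which lack dystrophin, and SkMRMs came from C57BL/10 mice, both at 4 weeks of age. Cells were sorted on the gal-3, Folr2 and CD52 proteins, and the labels name no drug or transgene in either group. Genotype and population changed together, because the table holds no gal-3+ library from WT muscle and no SkMRM library from mdx muscle, so the effect of the mutation and that of the cell type cannot be told apart. The column numbers (mdx1, mdx3, mdx4, mdx5 and WT1 to WT3) name libraries and pair no gal-3+ library with an SkMRM library.

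Resident macrophages sit between the fibers of healthy muscle, where they clear debris, recycle iron and display the hyaluronan receptor LYVE1, the scavenger receptor CD163 and the folate receptor FOLR2. In dystrophic muscle, fibers tear and regenerate continuously and monocytes enter from the blood. Macrophages that take up dying cells and lipid in many injured tissues express galectin-3 (*Lgals3*), osteopontin (*Spp1*) and the lysosomal glycoprotein *Gpnmb*, along with cathepsins and lipid carriers.

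The values are normalized counts, which are reads per gene divided by 1 size factor per library. Depth was 23575186 to 40307596 reads in the gal-3+ libraries and 24323114 to 75907638 in the SkMRM libraries. Sex-linked RNAs differed between the groups and among the SkMRM libraries. *Xist*, the noncoding RNA of the inactive X chromosome in females, was at 0 in all 4 gal-3+ libraries, against 6437, 1878 and 23983 normalized counts in SkMRM libraries WT1, WT2 and WT3. The Y-linked RNA helicase *Ddx3y* had 2252 to 2822 normalized counts in the gal-3+ libraries, against 1921 and 2525 in WT1 and WT2 and 0 in WT3. Likewise *Eif2s3y* had 852 to 1026 in the gal-3+ libraries, against 611 and 801 in WT1 and WT2 and 0 in WT3. The other Y-linked genes measured, *Uty* and *Kdm5d*, ran from 623 to 983 in the gal-3+ libraries, against 499 to 919 in WT1 and WT2, and WT3 had 6.86 of *Uty* and 33.6 of *Kdm5d*. Library WT3 thus had *Xist* with little or none of these 4 Y-linked RNAs, WT1 and WT2 had both, and the gal-3+ libraries had the Y-linked RNAs alone. The *Xist* level was at least 14500-fold lower in gal-3+ macrophages, taking 3 reads over the 4 libraries as the floor. The sex of the mice is not given in the sources used here. *Xist* moved with genotype and population, whereas little or none of the Y-linked RNAs was found in WT3 alone. The part of these RNAs in the results was not tested beyond leaving out WT3, which leaves *Xist* in WT1 and WT2.

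The markers of both populations separated the libraries without overlap. *Lgals3* (chromosome 14, 47367751 to 47386160) had 44141, 40684, 45826 and 44141 normalized counts in gal-3+ libraries mdx1, mdx3, mdx4 and mdx5, against 4049, 4559 and 3907 in SkMRM libraries WT1, WT2 and WT3. *Spp1* (chromosome 5, 104435118 to 104441050) had 127539, 106053, 147767 and 129463 in the gal-3+ libraries, against 234, 372 and 187 in the SkMRM libraries. *Gpnmb* had 81779, 76263, 90493 and 74000.3 in the gal-3+ libraries, against 295, 265 and 194 in the SkMRM libraries. The protein of *Lgals3* was part of the gate, so its level describes the sort as well as the cells, whereas *Spp1* and *Gpnmb* were not sorted on. On the log2 scale, gal-3+ macrophages were higher by 3.39 for *Lgals3* (standard error 0.09), 8.96 for *Spp1* (0.21) and 8.34 for *Gpnmb* (0.12), with limma adjusted p from 1.9e-17 to 1.2e-14. *Folr2*, another sort gene, had 2278, 2421, 2759 and 2576 in the gal-3+ libraries, against 14326, 14719 and 14548 in the SkMRM libraries. *Lyve1* (chromosome 7, 110850607 to 110863239), which was not sorted on, had 253, 276, 483 and 323 in the gal-3+ libraries, against 31952, 30426 and 34838 in the SkMRM libraries. Each of these was lower in every gal-3+ library, with log2 fold changes of -2.54 (standard error 0.15, limma adjusted p = 6.0e-10) and -6.64 (0.26, adjusted p = 1.6e-12). The third sort gene *Cd52* had 1767 to 2044 in the gal-3+ libraries, against 93.3 to 146 in the SkMRM libraries. In a bulk sample, a smaller share of cells with a transcript and less of it per cell cannot be told apart.

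**Figure D1:**
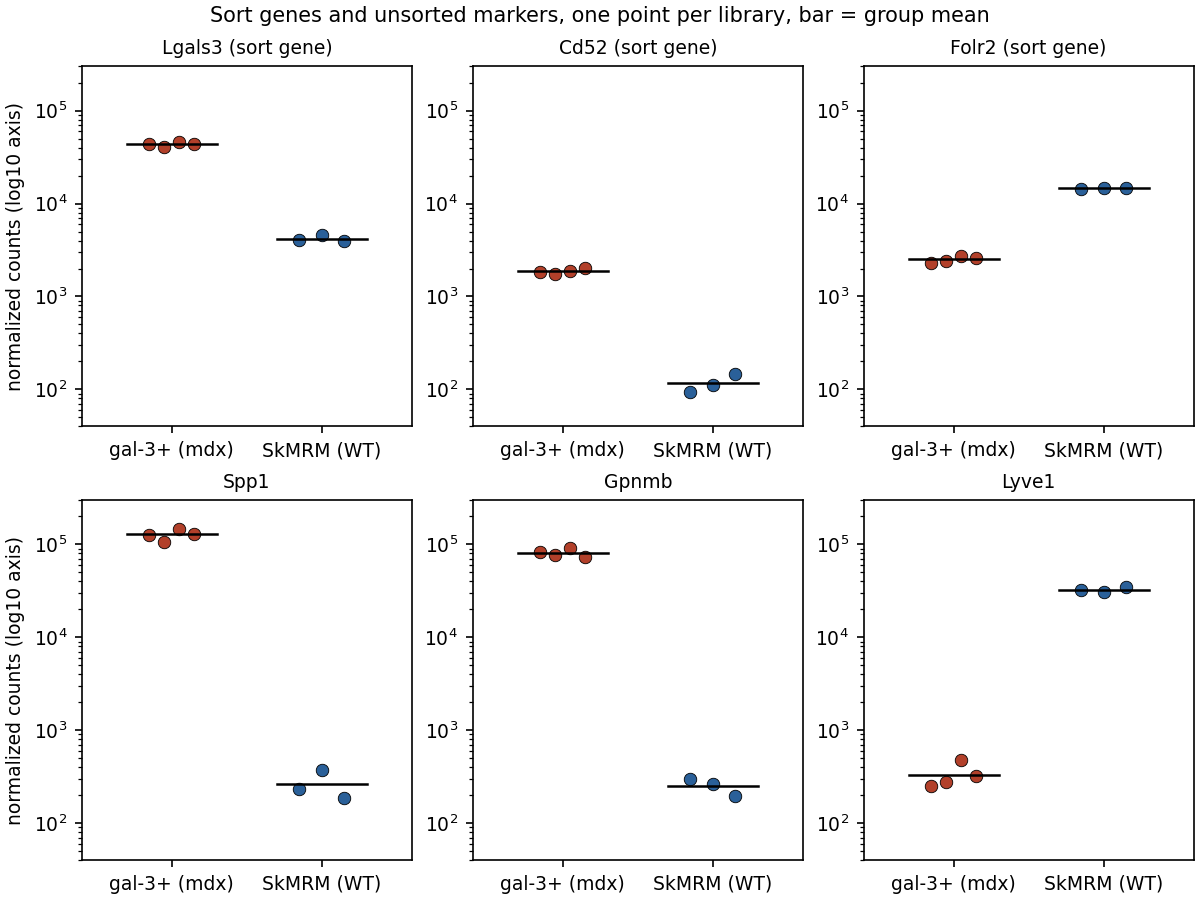
Normalized counts (log10 axis) of the 3 sort genes and 3 markers that were not sorted on, in each of the 4 gal-3+ libraries (left of each pair) and 3 SkMRM libraries (right). Points are libraries and bars are group means. No gene overlaps between the groups, and *Spp1* at 106053 to 147767 against 187 to 372 is the widest apart.

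Across 17001 genes, 908 were called higher and 2027 lower in gal-3+ macrophages, at a fold of at least 2 and a limma adjusted p under 0.01. These are 5.34% and 11.9% of the genes tested, the background against which each list below is read. The median log2 fold change of all genes was -0.11. Of the called genes, 902 lay above and 2016 lay below every SkMRM library without overlap. Of all genes tested, called or not, 24.2% lay above and 28.1% below every SkMRM library. At a fold of at least 16, 90 genes were higher and 273 lower. The balance turned with abundance. Among 5986 genes with a mean under 100 over the 7 libraries, 2.04% were higher and 14.7% lower, while among 420 genes with a mean of 10000 or above, 17.1% were higher and 9.52% lower. Genes called higher took 18.9 to 19.9% of the normalized counts of a gal-3+ library, against 6.13 to 6.38% of an SkMRM library. Those called lower took 2.79 to 3.11% in gal-3+ macrophages, against 13.4 to 16.5% in SkMRMs. Without WT3, 900 genes were higher and 1520 lower, and 836 and 1446 of these were called in the full comparison as well.

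**Figure D2:**
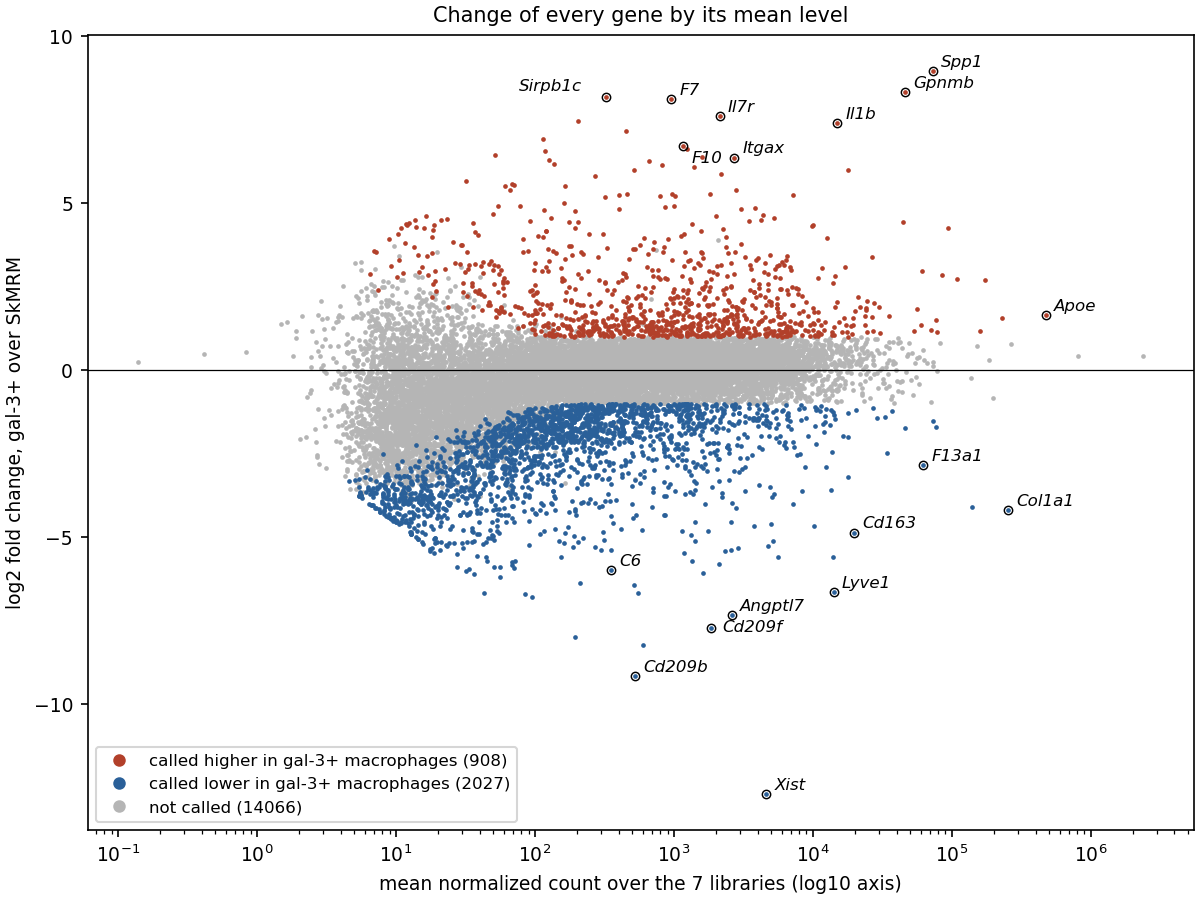
Log2 fold change of gal-3+ macrophages over SkMRMs (y axis) against the mean normalized count over the 7 libraries (x axis, log10 axis) for 17001 genes. Colored points are the 908 genes called higher and the 2027 called lower, and the named genes are examples described in the text, from 8.96 for *Spp1* down to a fitted -12.69 for *Xist*, which had no reads in gal-3+ macrophages.

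The 15 largest rises ran from 8.96 for *Spp1*, followed by *Gpnmb*, down to 6.28. *Sirpb1c*, an activating receptor of myeloid cells, had 431, 609, 624 and 618 normalized counts in the gal-3+ libraries, against 0, 0 and 6.50 in the SkMRM libraries. *F7*, coagulation factor VII (chromosome 8, 13026034 to 13035809), had 1857, 1528, 1683 and 1588 in the gal-3+ libraries, against 1.17, 6.21 and 12.6 in the SkMRM libraries. Its neighbor *F10*, the precursor of factor Xa (chromosome 8, 13037308 to 13056676), had 2138, 1632, 1899 and 2381 in the gal-3+ libraries, against 24.5, 4.66 and 46.6 in the SkMRM libraries. The log2 fold changes were 8.17 for *Sirpb1c*, 8.12 for *F7* and 6.71 for *F10*, with limma adjusted p from 2.6e-11 to 1.5e-09. *Il7r*, the receptor chain for interleukin-7 and thymic stromal lymphopoietin, had 3459.6 to 4040.4 in the gal-3+ libraries, against 12.4 to 28 in the SkMRM libraries. It is also on the list of T and NK cell markers, which summed to 5501 to 6151 in the gal-3+ libraries, against 1100 to 1457 in the SkMRM libraries, and was the only 1 of the 7 in the table to be called. Without *Il7r* the list summed to 1574 to 2161 in the gal-3+ libraries, against 1083 to 1429 in the SkMRM libraries, most of it *Cd4* (log2 fold change 0.81, a fold under 2), and *Cd3e*, a chain of the T cell receptor complex, had at most 9.23 in any gal-3+ library. *Trem1*, which amplifies inflammatory signals, had 646 to 996 in the gal-3+ libraries, against 1.80 to 10.5 in the SkMRM libraries. The others with the largest rises were *Il1b* (interleukin-1β), *Mmp8* (neutrophil collagenase), *Cd300lf* (a lipid-sensing receptor), *Arg1* (arginase 1), *Itgax* (the integrin chain CD11c), *Sh2d1b1* and 2 more genes of the *Sirpb1* family, with log2 fold changes from 6.28 to 7.46. The *Sirpb1* genes are close copies of each other, so their reads may be split between them.

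The 15 largest falls held *Xist* and *Lyve1*, given above, and 4 genes of the Cd209 family of lectins. *Cd209b*, a relative of the pathogen receptor DC-SIGN, had 1.55, 0, 5.13 and 0 normalized counts in the gal-3+ libraries, against 1932, 873 and 861 in the SkMRM libraries. *Cd209f* had 9.33 to 39.0 in the gal-3+ libraries, against 3569 to 5257 in the SkMRM libraries. All 7 genes of the Cd209 family in the table lie side by side on chromosome 8 between 3743397 and 4137707, and all 7 were lower, from -1.83 for *Cd209a* to -9.15 for *Cd209b*. Reads of these related genes may also be shared. *Pla2g2d*, a secreted phospholipase that dampens inflammation, had 2.92 to 32.0 in the gal-3+ libraries, against 1003 to 1293 in the SkMRM libraries. The complement component *C6* had 5.33 to 16.4 in the gal-3+ libraries, against 693 to 904 in the SkMRM libraries. *Wif1*, an inhibitor of Wnt ligands, *Angptl7*, and the cartilage and tendon matrix genes *Chad*, *Cilp2*, *Kera* and *Fmod* fell, with log2 fold changes from -5.60 to -7.32. *Chad* was at 5864, 2791 and 2445 in WT1, WT2 and WT3, and *Cilp2*, *Kera* and *Fmod* had the same order. Tenocyte markers ran in that order too, with a sum (without *Egr1*, which macrophages also express) of 4558 to 7319 in the gal-3+ libraries, against 134200, 83160 and 70370 in WT1, WT2 and WT3.

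A few highly read genes carried much of the shift. The 10 genes with the largest gain in share were *Apoe*, *Psap*, *Ctsb*, *Thbs1*, *Ctss*, *Spp1*, *Ctsd*, *Lyz2*, *Fn1* and *Gpnmb*, and together they took 6.65 to 7.43% of the normalized counts of a gal-3+ library, against 1.73 to 1.96% of an SkMRM library. *Apoe*, the lipid carrier, alone had 560947, 644173, 711845 and 751879.8 normalized counts in the gal-3+ libraries, against 223904, 227472 and 187206 in the SkMRM libraries. The 10 with the largest loss were *Col1a1*, *Col1a2*, *F13a1*, *Mrc1*, *Jun*, *Egr1*, *Sparc*, *Cd163*, *Ppp1r15a* and *AI607873*, at 0.653 to 0.722% of a gal-3+ library, against 4.17 to 6.96% of an SkMRM library. *F13a1*, the A chain of clotting factor XIII and a resident macrophage marker, had 16559, 15292, 18891 and 18068 in the gal-3+ libraries, against 119733, 121863 and 123632 in the SkMRM libraries. Its fall of 2.83 on the log2 scale (standard error 0.09, limma adjusted p = 2.0e-13) was steady across libraries, unlike that of *Col1a1*, which ranged from 328887 to 840622 among the SkMRM libraries. Beside *Col1a1* and *Col1a2*, the other 18 fibroblast markers summed to 46820 to 64610 in the gal-3+ libraries, against 94420, 74580 and 71560 in WT1, WT2 and WT3.

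**Figure D3:**
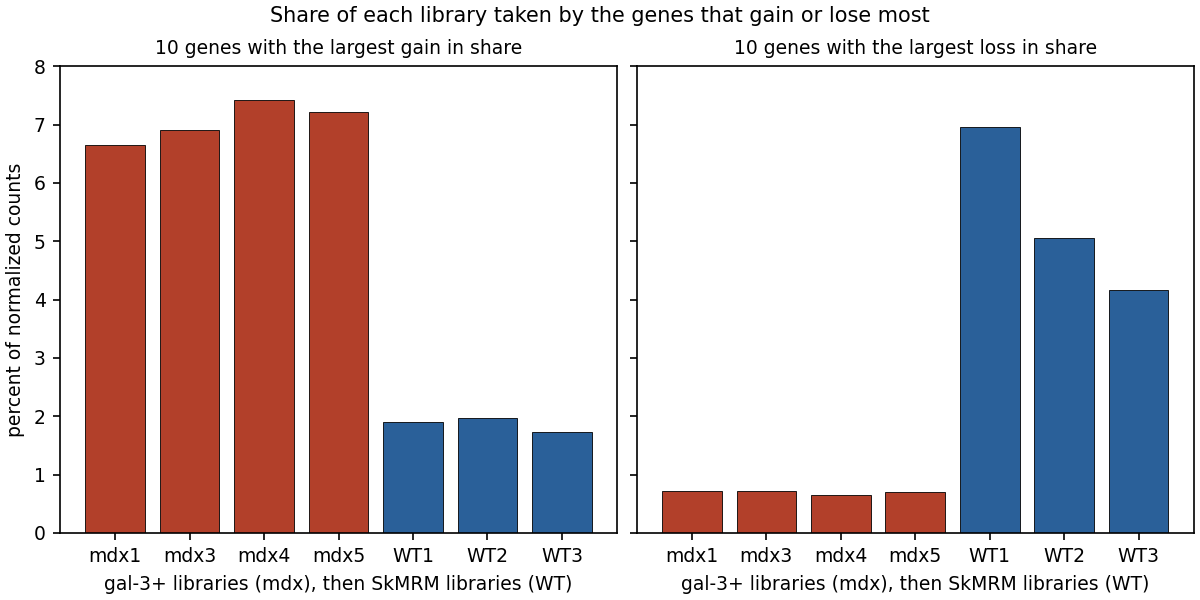
Percent of each library's normalized counts (y axis, from 0) taken by the 10 genes with the largest gain in share and the 10 with the largest loss, for 4 gal-3+ libraries (left) and 3 SkMRM libraries (right). Each bar is 1 library. The gaining genes take 6.65 to 7.43% in gal-3+ macrophages against 1.73 to 1.96% in SkMRMs, and the losing genes take under 1% in gal-3+ macrophages against 4.17% or more in SkMRMs.

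Promoter sequence was read for the genes of the table that RefSeq places on GRCm38.p6, from 250 bases before to 50 after the start, which gave 11087 genes. Of 9 motifs searched on both strands, the site of PU.1 (GAGGAAGT), the factor that defines myeloid cells, was in the promoters of 8.7% of genes called higher, 3.71% of genes called lower and 3.92% of all genes. The AP-1 site (TGANTCA), bound by FOS and JUN, was in 11.4% of genes called higher, 9.51% of genes called lower and 6.67% of all genes. The MARE core (TGCTGAC) of MAF factors was in 3.3% of genes called higher, 7.07% of genes called lower and 4.59% of all genes. The palindromic CLEAR core (TCACGTGA), bound by the lysosomal regulators TFEB and TFE3, was in 1.35% of genes called higher, 1.18% of genes called lower and 2.04% of all genes. It holds the shorter E-box (CACGTG) within it, which was in 12.7, 9.42 and 11.2% of those genes. The NF-kappaB site (GGGNNTTCC) was in 7.2, 7.25 and 8.33% and the C/EBP site (TTGCGCAA) in 0.3, 0.181 and 0.307% of the same groups of genes. These shares are descriptions and were not tested. The promoters of *Spp1* and *Gpnmb*, chosen after their values were seen, show the first 2 motifs in capitals. That of *Spp1*, at 1 of its 2 starts in RefSeq, is chr5:104434861-104435160 on the plus strand with a PU.1 site 113 bases before the start, and that of *Gpnmb* is chr6:49036268-49036567 on the plus strand with an AP-1 site that begins 8 bases after it.
Spp1: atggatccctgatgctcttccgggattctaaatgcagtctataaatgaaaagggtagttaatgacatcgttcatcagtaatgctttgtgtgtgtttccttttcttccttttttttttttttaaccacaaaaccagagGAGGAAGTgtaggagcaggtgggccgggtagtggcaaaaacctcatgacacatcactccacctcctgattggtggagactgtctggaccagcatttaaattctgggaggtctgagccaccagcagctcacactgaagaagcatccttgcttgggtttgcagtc
Gpnmb: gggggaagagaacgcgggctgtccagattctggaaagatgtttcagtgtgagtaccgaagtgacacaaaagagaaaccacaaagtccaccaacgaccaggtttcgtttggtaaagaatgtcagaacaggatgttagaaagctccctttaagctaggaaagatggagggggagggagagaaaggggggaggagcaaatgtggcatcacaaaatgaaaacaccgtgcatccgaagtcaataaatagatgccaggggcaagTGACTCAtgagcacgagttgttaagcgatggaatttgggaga

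Receptors for taking up dead cells and lipid debris were called higher more often than lower. Of 28 such genes, 10 were higher and 3 lower, with a median log2 fold change of 0.60. These are 35.7 and 10.7%, against 5.34 and 11.9% of all genes. *Cd300lf*, with 1752 to 2959.8 normalized counts in the gal-3+ libraries against 9.33 to 32.8 in the SkMRM libraries, *Itgb5* and *Itgav* (the integrin that binds dying cells through the bridge *Mfge8*) and *Axl* (a receptor of phosphatidylserine bridges) were among those that rose. *Itgb5* had 17479, 17889, 19499.9 and 19352 in the gal-3+ libraries, against 2427, 2492 and 1845 in the SkMRM libraries. The bridge *Gas6* and the receptor *Timd4* fell, with log2 fold changes of -2.46 and -5.33. Among 24 scavenger receptors, 6 were higher and 7 lower, with *Olr1* at 1427 to 1965 in gal-3+ macrophages against 26.7 to 88.5 in SkMRMs, and *Cd163*, the receptor for hemoglobin bound to haptoglobin, at 1043, 1792, 1670.5 and 1632 in gal-3+ libraries against 46741, 48611 and 36600.0 in SkMRM libraries.

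C-type lectins went both ways. Of 25 in the table, 5 were higher and 11 lower, with a median of -0.45. Those that rose by the most were *Clec4e* (mincle, 3.68), *Clec7a* (dectin-1, 3.43) and *Clec4d* (2.64), which bind fungal and mycobacterial glycolipids or glucans. *Mgl2* and *Clec10a*, galactose-binding lectins, and *Mrc1*, the mannose receptor, fell with the Cd209 genes. *Mgl2* had 317, 299, 330.4 and 402 in the gal-3+ libraries, against 11241, 10943 and 12743 in the SkMRM libraries. Among 24 Siglecs and paired receptors, 10 were higher and 3 lower, and 4 neighbors on chromosome 17 between 48264295 and 48354147 rose together. These were *Treml4*, *Treml2*, *B430306N03Rik* and the lipid sensor *Trem2*, at log2 fold changes of 4.91, 4.08, 2.03 and 3.14. *Cd22*, a sialic acid-binding inhibitory receptor best known from B cells, had 2164 to 2446 in gal-3+ macrophages against 81.9 to 157 in SkMRMs, and was the only 1 of 8 B cell markers called higher. The other 7 summed to 1456 to 2376 in the gal-3+ libraries, against 5925 to 6708 in the SkMRM libraries. Of these, the immunoglobulin genes *Ighm* and *Ighd* were lower, the receptor chain *Cd79b* had 120.0 to 207 in gal-3+ macrophages against 69.7 to 92.1 in SkMRMs and was not called by limma (adjusted p = 0.011) but was by edgeR and DESeq2 on recovered reads, and *Ms4a1* (CD20) had at most 3.90 in any gal-3+ library.

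Lysosomal genes were called higher more often than lower. Cathepsins and cystatins were called higher in 8 of 16 genes, and lysosomal hydrolases in 16 of 36, with medians of 1.11 and 0.81. In each list 1 gene fell, *Ctsf* and the sulfatase *Arsb*. *Ctsd*, cathepsin D, had 135170.1, 125353, 147482 and 132569 normalized counts in the gal-3+ libraries, against 19204, 19886 and 17265 in the SkMRM libraries. *Acp5*, tartrate-resistant acid phosphatase, had 3025, 3346, 3603 and 3676 in the gal-3+ libraries, against 125, 172 and 124 in the SkMRM libraries. Among 20 subunits and partners of the vacuolar proton pump, 5 were higher, led by *Atp6v0d2* at 7710.3 to 9933 in gal-3+ macrophages against 364 to 381 in SkMRMs. *Atp6v0d2* and *Acp5* are also genes of osteoclasts. *Ctsk*, the collagenase of those cells, had a log2 fold change of -0.31 and was not called. A likeness to osteoclasts was not tested. Of 26 lysosomal membrane proteins 6 were higher, with *Gpnmb* and the calcium channel *Mcoln3* in front. Autophagy genes moved little, with 1 of 31 higher (*Atg13*), 1 lower (*Optn*) and a median of 0.14. Without WT2, 2 autophagy genes were lower.

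Of the genes called higher with a mean of at least 1000 that were considered for printing, 5 held a CLEAR core. The genes considered did not cover every chromosome, so others may hold it. Of these 5, the 3 with the largest log2 fold changes are shown with it in capitals. *Ctsd* lies at chr7:142387778-142388077 on the minus strand. *Igf2r*, the mannose 6-phosphate receptor that carries enzymes to the lysosome, lies at chr17:12769657-12769956 on the minus strand and holds 2 copies. *Osbpl8*, an oxysterol-binding protein, lies at chr10:111164552-111164851 on the plus strand. *Igf2r* had 7229.6 to 10093 normalized counts in gal-3+ macrophages against 1262 to 1871 in SkMRMs, and *Osbpl8* had 12748 to 15205 against 4842 to 6060.2. Of lysosomal list genes called higher, the core was in 1 of 5 promoters of cathepsins and cystatins (*Ctsd*) and 0 of 14 of hydrolases. It was in 0 of 5 of membrane proteins and 0 of 1 of the proton pump. Called or not, these lists held it in 2 of 12, 1 of 30, 4 of 23 and 3 of 14 promoters.
Ctsd: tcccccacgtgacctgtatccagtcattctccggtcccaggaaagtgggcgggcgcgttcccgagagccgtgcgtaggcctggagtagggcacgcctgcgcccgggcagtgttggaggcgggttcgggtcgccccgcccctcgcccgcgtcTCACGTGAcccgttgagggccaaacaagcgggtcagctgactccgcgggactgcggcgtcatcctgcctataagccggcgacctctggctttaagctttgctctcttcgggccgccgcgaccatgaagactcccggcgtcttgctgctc
Igf2r: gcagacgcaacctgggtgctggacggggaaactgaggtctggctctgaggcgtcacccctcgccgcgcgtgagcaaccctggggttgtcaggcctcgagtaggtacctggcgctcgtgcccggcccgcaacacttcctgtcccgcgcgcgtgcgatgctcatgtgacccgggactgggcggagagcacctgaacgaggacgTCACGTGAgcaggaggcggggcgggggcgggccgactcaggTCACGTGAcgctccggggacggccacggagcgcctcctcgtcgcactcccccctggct
Osbpl8: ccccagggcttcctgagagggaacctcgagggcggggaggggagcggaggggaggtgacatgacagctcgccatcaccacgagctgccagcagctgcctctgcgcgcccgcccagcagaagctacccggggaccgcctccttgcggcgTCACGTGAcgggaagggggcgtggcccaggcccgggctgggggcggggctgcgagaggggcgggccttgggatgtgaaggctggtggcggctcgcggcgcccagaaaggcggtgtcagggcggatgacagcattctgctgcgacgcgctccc

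Of the genes that carry, store and export lipid, more were called higher than lower, and most were not called. Among 29 genes of fatty acid uptake, binding and droplet storage, 10 were higher and the other 19 were not called. *Fabp5*, a fatty acid-binding protein, had 30317 to 32256 normalized counts in gal-3+ macrophages against 380.1 to 656 in SkMRMs, and *Fabp7*, a relative known from brain, had 101 to 167 against 4.66 to 15.2. In the list of cholesterol efflux and apolipoproteins, 10 of 26 were higher and 3 lower. *Apoc2*, the activator of lipoprotein lipase, rose by 5.99 on the log2 scale, and *Nr1h3* (the sterol sensor LXRα) and its target *Abcg1* rose by 3.00 and 2.99. *Ch25h*, which makes 25-hydroxycholesterol, fell by 2.46. Of 31 genes of sterol and fatty acid synthesis, 3 were higher and 1 lower, shares of 9.68 and 3.23% against 5.34 and 11.9% of all genes. Eicosanoid genes went both ways, with 4 of 24 higher and 7 lower. *Ptgs2*, the inducible cyclooxygenase, had 15851, 15287, 15798 and 19341 in the gal-3+ libraries, against 920.3, 805 and 772 in the SkMRM libraries. *Alox5*, 5-lipoxygenase, had 292, 364, 375 and 447 in the gal-3+ libraries, against 4602, 4702 and 4775 in the SkMRM libraries. *Ltc4s*, leukotriene C4 synthase, fell by 2.99, and *Hpgd*, which inactivates prostaglandins, had 196 to 268 in gal-3+ macrophages against 3368 to 3992 in SkMRMs.

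Cytokine genes were called higher more often than lower, and chemokine genes lower more often than higher. Of 25 cytokines, 13 were higher and 3 lower, with a median of 1.00, while of 24 chemokines, 4 were higher and 10 lower, with a median of -0.32. The cytokine shares are 52 and 12%, against 5.34 and 11.9% of all genes. The cytokines called higher numbered 8 with a replicate block, 9 with a variance prior without a trend and 11 with DESeq2 on recovered reads. *Il1rn*, the interleukin-1 receptor antagonist, had 21289, 18307, 20795 and 23579 normalized counts in the gal-3+ libraries, against 1065, 1080.2 and 2102 in the SkMRM libraries. *Il10*, an anti-inflammatory cytokine, had 10147, 9046, 8725 and 11062 in the gal-3+ libraries, against 990.3, 909 and 1184 in the SkMRM libraries. *Il1b*, whose receptor *Il1rn* blocks, rose too, by 7.39. *Tnf* and *Il6* were not called, at log2 fold changes of -0.50 and -0.42, and their libraries overlapped. *Tslp*, the epithelial cytokine, fell by 4.80, and *Ifnb1*, interferon β, had a log2 fold change of -2.18. The 5 chemokine genes next to each other on chromosome 11, *Ccl2*, *Ccl7*, *Ccl11*, *Ccl12* and *Ccl8* between 82035571 and 82116799, were all lower, with log2 fold changes from -1.44 to -2.65. *Ccl12* had 849, 835, 809 and 817 in the gal-3+ libraries, against 4971, 4495 and 4531 in the SkMRM libraries. *Cxcl3*, *Cxcl16* and *Cxcl1* rose by 3.54, 2.47 and 1.81.

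Growth factors went both ways, and some for vessels, epithelium and muscle were among those that rose. Of 34 growth factors, 5 were higher and 4 lower, with a median of -0.43. These are 14.7 and 11.8%, against 5.34 and 11.9% of all genes, so the share lower was close to that of all genes. *Vegfa*, the main factor of blood vessel growth, had 8283, 6609.7, 6269 and 8687 normalized counts in the gal-3+ libraries, against 243, 346 and 301 in the SkMRM libraries. *Hgf*, which activates satellite cells, had 2192, 1975, 2079.9 and 1987 in the gal-3+ libraries, against 173, 204 and 277 in the SkMRM libraries. *Nrg1*, a ligand of ERBB receptors at nerve and muscle, had 385 to 609 in gal-3+ macrophages against 3.50 to 11.9 in SkMRMs. *Igf1*, a driver of muscle growth that macrophages secrete, was at -0.42 on the log2 scale (standard error 0.12, limma adjusted p = 0.0075), a fold under 2. *Ctgf*, connective tissue growth factor, fell by 3.97, with 3538 to 7418 in SkMRMs. Without WT1 or without WT2, 2 growth factors were lower in place of 4. In the TGF-β superfamily 6 of 37 genes were higher and 6 lower. *Tgfb1* itself had 13426, 13888, 15964 and 14327 in the gal-3+ libraries, against 6286, 6667 and 7128 in the SkMRM libraries (log2 fold change 1.10, or 0.99 and not called with upper quartile scaling). Its receptor *Tgfbr1* rose by 2.76 while *Bmp2* fell by 2.30.

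Complement genes were called lower more often than higher, and clotting genes went both ways. Of 25 complement genes, 8 were lower and 1 higher (*Itgax*, a chain of complement receptor 4), or 2 higher without WT1. *C4b*, complement component 4, had 871, 967, 792 and 988 normalized counts in the gal-3+ libraries, against 23148, 23309 and 21701 in the SkMRM libraries. *Fcna* (ficolin A) and *Vsig4* (a receptor for C3b) fell, with log2 fold changes of -5.25 and -3.72. The chains of C1q were not called, with log2 fold changes of -0.27, 0.19 and -0.39 for *C1qa*, *C1qb* and *C1qc*. Among 26 genes of coagulation and plasminogen activation, 8 were higher, *F7* and *F10* among them, and 4 lower, *F13a1* among them, with a median of -0.03. With *F13a1* in it, this list summed to 84000 to 90120 in the gal-3+ libraries, against 179400 to 182900 in the SkMRM libraries. *F13a1* alone gave 15292 to 18891 of that sum in the gal-3+ libraries, against 119733 to 123632 in the SkMRM libraries. The lower sum thus follows *F13a1* and does not describe the other genes of the list. *Plaur*, the urokinase receptor, rose by 1.71.

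Of 31 metalloproteases and inhibitors, 10 were higher and 5 lower. *Adam8*, a membrane protease of leukocytes, had 13777, 12387, 10906 and 12540.4 normalized counts in the gal-3+ libraries, against 304, 335 and 340.4 in the SkMRM libraries. *Mmp8*, *Mmp12* (macrophage elastase), *Mmp19* and *Mmp14* rose by 7.46, 5.40, 3.29 and 2.78, and *Mmp9* (gelatinase B) fell by 4.80. Matrix genes that macrophages themselves often express went both ways. Of 32, 7 were higher (21.9% against 5.34% of all genes) and 8 lower (25% against 11.9%). Among the former was *Tgm2*, tissue transglutaminase, which rose by 4.34, and among the latter *Lox*, a collagen cross-linking oxidase, at -3.02. The list summed to 669200 to 733400 in the gal-3+ libraries, against 203300 to 304700 in the SkMRM libraries. The tenocyte and fibroblast sums given above went the other way, lower in the gal-3+ libraries.

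Tendon markers and a part of the fibroblast markers were lower in gal-3+ macrophages. All 13 tenocyte markers were lower, with a median of -4.67, and so were 10 of 20 genes that mark fibroblasts or fibro/adipogenic progenitors. *Tnmd*, tenomodulin, had 145, 133, 105 and 166 in the gal-3+ libraries, against 5300.2, 3576 and 2899 in the SkMRM libraries. *Col1a1* ran in the same order, at 840622, 480155 and 328887 in WT1 to WT3. No tenocyte marker was at 0 in all libraries of a group. The part of tendon cells and fibroblasts in the collagen and matrix values was not tested. *Pdpn*, podoplanin, on the fibroblast list, rose instead, by 3.76. Adipocyte markers rose in 3 of 8 genes, all 3 of them (*Pparg*, *Lpl* and *Fabp4*) genes that macrophages express too. *Fabp4* had a log2 fold change of 0.72 without WT3 and was then not called.

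Embryonic and perinatal myosin genes were higher in gal-3+ macrophages. *Myh3*, the embryonic myosin heavy chain of regenerating fibers, had 747, 505, 774 and 709.8 normalized counts in the gal-3+ libraries, against 26.8, 22.5 and 19.1 in the SkMRM libraries. *Myh8*, the perinatal myosin, had 129, 228, 182 and 182 in the gal-3+ libraries, against 18.7, 18.6 and 28.5 in the SkMRM libraries. Both rose, by 4.84 and 2.98 on the log2 scale (limma adjusted p = 6.8e-10 and 1.6e-05). *Gm7325*, the gene of the fusion peptide myomixer, was at 0 in every SkMRM library and at 5.33 to 25.7 in the gal-3+ libraries, at least 29.8-fold higher with 3 reads over the SkMRM libraries as the floor. Its call was lost without any 1 of mdx1, mdx4, mdx5, WT1, WT2 and WT3. The adult fast myosins *Myh4* and *Myh2* and the muscle creatine kinase *Ckm* were lower, with log2 fold changes of -1.50, -2.74 and -1.31. The call of *Myh2* was lost without any 1 of mdx4, mdx5, WT1 and WT3. In all, 4 of 14 satellite cell and myoblast markers were higher, or 2 without any 1 of mdx1, mdx4, mdx5, WT1 and WT3. Of 20 muscle fiber markers 5 were lower, or 2 without WT3. Fiber markers summed to 14680 to 18110 normalized counts in the gal-3+ libraries, against 20550, 21600 and 33170 in WT1, WT2 and WT3. The part of muscle RNA in the other results was not tested.

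Integrins and chemoattractant receptors were called higher more often than lower. Of 25 integrin genes, 9 were higher, 13 were not called and 3 were lower, or 1 lower without WT1 or without WT2. The 9 and the 3 are 36 and 12%, against 5.34 and 11.9% of all genes. *Itgal* (the LFA-1 chain) had 3212, 4337, 3949 and 3644 normalized counts in the gal-3+ libraries, against 314, 181 and 138 in the SkMRM libraries, and *Itga6* (a laminin receptor) rose by 3.08. Of 36 chemokine and chemoattractant receptors, 13 were higher, 3 lower and 20 not called. *Gpr35* had 2493 to 3704 in gal-3+ macrophages against 52.5 to 117 in SkMRMs. *Cx3cr1*, the fractalkine receptor, had 8917, 7117, 11083 and 9799.7 in the gal-3+ libraries, against 1080.1, 905 and 1136 in the SkMRM libraries, and *Cxcr4*, the receptor of CXCL12, rose by 3.22. *Cxcr3* fell by 2.29.

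Receptors for growth factors and cytokines changed in 17 of 45 genes, 11 higher and 6 lower. *Fgfr1*, a fibroblast growth factor receptor, had 874, 888, 1049.7 and 1044 normalized counts in the gal-3+ libraries, against 15615, 16043 and 14482 in the SkMRM libraries. *Egfr* and *Lifr*, the receptors of epidermal growth factor and leukemia inhibitory factor, fell, with log2 fold changes of -3.79 and -2.32. *Csf3r* and *Csf2rb*, receptors of the colony-stimulating factors for granulocytes and for granulocytes and macrophages, rose by 2.89 and 2.39. *Csf1r*, the receptor that macrophages need to survive, had a log2 fold change of -0.21 and its libraries overlapped. Of 36 semaphorins, plexins, netrins and ephrins, 9 were lower and 3 higher. *Sema4d* had 5261 to 6245 in gal-3+ macrophages against 184 to 382 in SkMRMs, while *Sema3a*, *Sema3b* and *Sema3c*, secreted guidance cues, were at -3.90, -3.64 and -3.28 on the log2 scale, and their coreceptor *Nrp1* had a log2 fold change of -0.02.

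Genes of antigen presentation by MHC class II changed in 1 direction. Of 14 genes, 7 were higher and the other 7 were not called, with a median of 1.48. *Ciita*, the coactivator that switches these genes on, had 1681, 2897, 2348 and 2279 normalized counts in the gal-3+ libraries, against 376, 568 and 426 in the SkMRM libraries. *H2-Ab1* had 33856, 37302, 32971 and 42119 in the gal-3+ libraries, against 7423, 9902 and 9019.5 in the SkMRM libraries. The invariant chain *Cd74* rose by 1.82. *Cd86*, the costimulatory ligand of CD28, went the other way, with 2128, 2797, 2064 and 2372 in the gal-3+ libraries, against 8562, 9538 and 10716 in the SkMRM libraries. It was the sole gene called lower among 24 costimulatory and checkpoint molecules, of which 10 were higher, including *Cd274* (PD-L1, by 2.03) and *Havcr2* (TIM-3, by 3.21). Of 14 dendritic cell markers, 1 was higher (*Itgax*, by 6.36), 3 were lower (*Siglech*, *Cd209a* and *Zbtb46*, at -4.07, -1.83 and -1.75) and 10 were not called, with a median of -0.10.

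**Figure D4:**
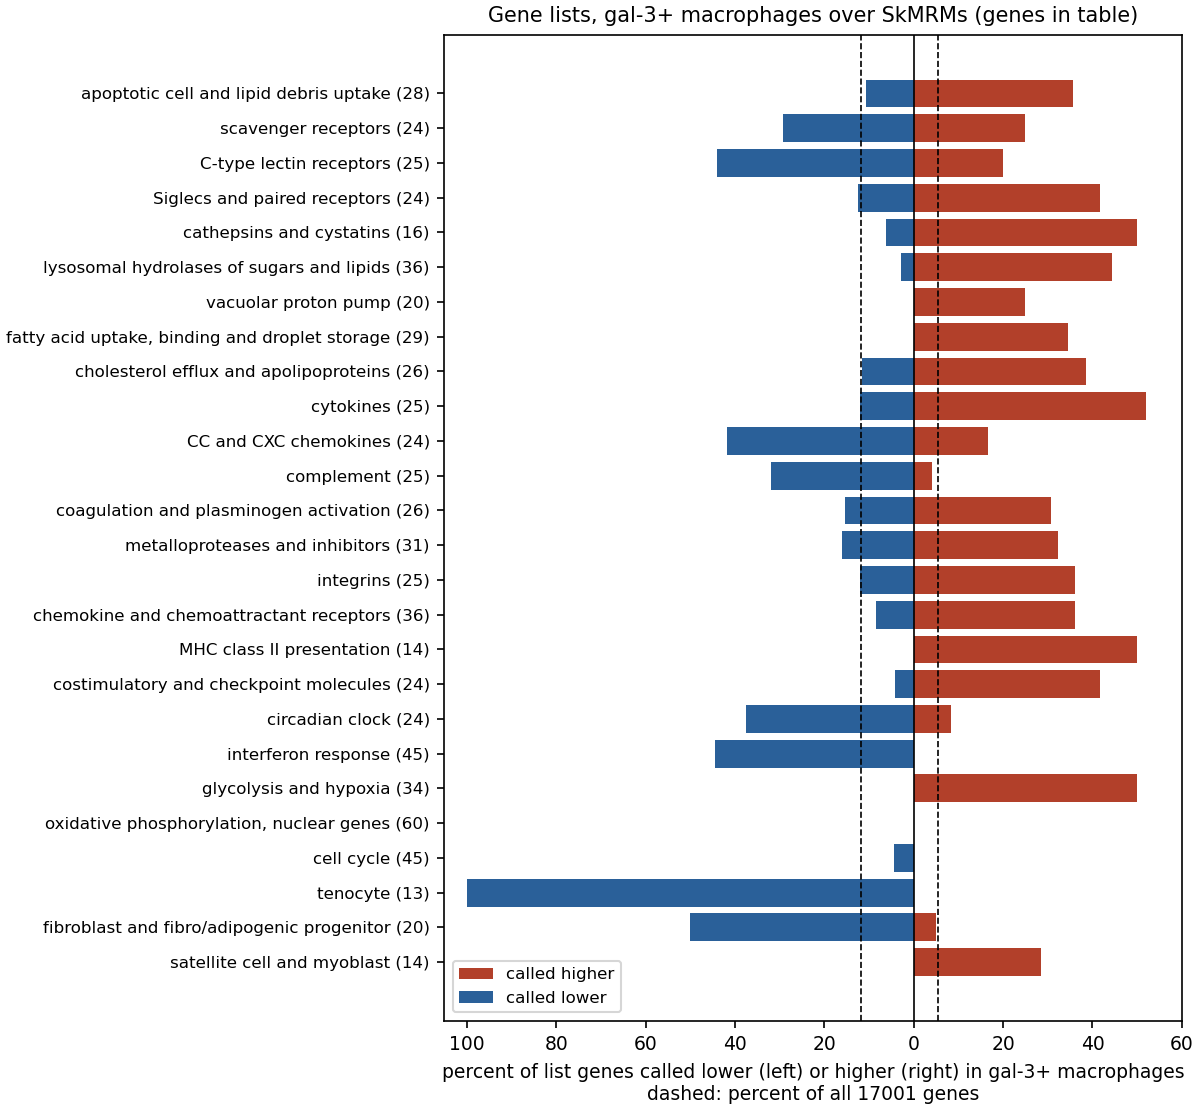
Percent of each list's genes called higher (right) and lower (left) in gal-3+ macrophages than in SkMRMs, for 26 lists, with the number of genes in the table beside each name. Dashed lines mark the 5.34% and 11.9% of all 17001 genes. As examples, glycolysis and hypoxia (50%) and the cytokines (52%) lie beyond the dashed line on the right. Interferon response (44.4%), complement (32%) and tenocyte markers (100%) lie beyond that on the left.

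Transcription factors of the macrophage lineage changed in 19 of 49 genes, 13 higher and 6 lower. These are 26.5 and 12.2%, against 5.34 and 11.9% of all genes. *Runx3* had 5218, 5153, 4897 and 5477 normalized counts in the gal-3+ libraries, against 146, 203 and 201 in the SkMRM libraries, a log2 fold change of 4.83 (standard error 0.11, limma adjusted p = 5.4e-15). *Nr4a1*, *Pparg* (the lipid-sensing nuclear receptor) and *Cebpb* rose by 2.82, 2.47 and 1.36. *Spic*, which red pulp macrophages need to recycle iron, *Etv1* and *Irf4* fell, with log2 fold changes of -3.06, -2.65 and -2.34. *Maf*, a factor of resident macrophages, had a log2 fold change of -0.93, a fold under 2. Immediate early genes split, with 5 of 30 higher and 5 lower. *Jun* had 38938, 40804, 43502 and 39891 in the gal-3+ libraries, against 111966, 122853 and 113728 in the SkMRM libraries, and *Egr1* fell by 1.73, whereas *Fos* had a log2 fold change of 0.14 and overlapped. The phosphatases *Dusp2* and *Dusp5*, which switch off MAP kinases, rose by 4.17 and 3.13. In the NF-kappaB list 8 of 25 were higher, led by *Bcl2a1b* (3.55) and *Bcl2a1d* (3.49), copies of 1 survival gene whose reads may be shared.

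Genes of the circadian clock were lower more often than higher. Of 24 in the table, 9 were lower and 2 higher, with a median of -0.60. *Dbp*, *Tef* and *Hlf* activate genes at D-boxes and *Nfil3* represses them. *Dbp* had 230.1, 263, 369 and 307 normalized counts in the gal-3+ libraries, against 2035, 2288 and 1927 in the SkMRM libraries. *Nfil3* had 8068, 7426, 8337 and 8465 in the gal-3+ libraries, against 2090.2, 2118 and 1918 in the SkMRM libraries. *Tef* and *Hlf* had log2 fold changes of -1.32 and -3.50. *Nr1d1* and *Nr1d2* (the REV-ERB repressors) had 691 to 899 and 1028 to 1466 in gal-3+ macrophages against 5386 to 6614 and 6345 to 7461 in SkMRMs. *Per2*, *Per3* and *Cry2* fell, with log2 fold changes of -1.71, -2.16 and -1.79, and *Per1*, at -0.26, did not pass. *Arntl* (BMAL1), the activator at the center of the clock, had 649.9, 775, 875 and 799 in the gal-3+ libraries, against 906, 653 and 1015 in the SkMRM libraries, and these overlapped. The time of day at which each mouse was killed is not given in the sources used here, so sampling time and population cannot be told apart. MDMs, also from mdx mice, had 131 ± 51.2 of *Dbp* and 11754 ± 1172 of *Nfil3* (SD, n = 3).

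The D-box (TTATGTAA) was in the promoters of 0.75% of genes called higher, 1.18% of genes called lower and 0.713% of all genes. Among 19 clock genes with a promoter 1 held it, *Per3*. Of the genes called lower with a mean of at least 1000 that were considered for printing, a single gene held it. The genes considered again did not cover every chromosome. That gene was *Mctp1*, a calcium-binding membrane protein, at chr13:76579347-76579646 on the plus strand. *Mctp1* had 992 to 1101 normalized counts in gal-3+ macrophages against 3083 to 3973 in SkMRMs. Its promoter is shown with the D-box in capitals.
Mctp1: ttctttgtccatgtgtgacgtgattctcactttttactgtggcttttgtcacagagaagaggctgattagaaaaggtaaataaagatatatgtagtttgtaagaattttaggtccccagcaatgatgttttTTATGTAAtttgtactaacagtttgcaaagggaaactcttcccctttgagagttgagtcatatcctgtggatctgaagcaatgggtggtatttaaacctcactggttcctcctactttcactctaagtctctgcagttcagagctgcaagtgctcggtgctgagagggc

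**Figure D5:**
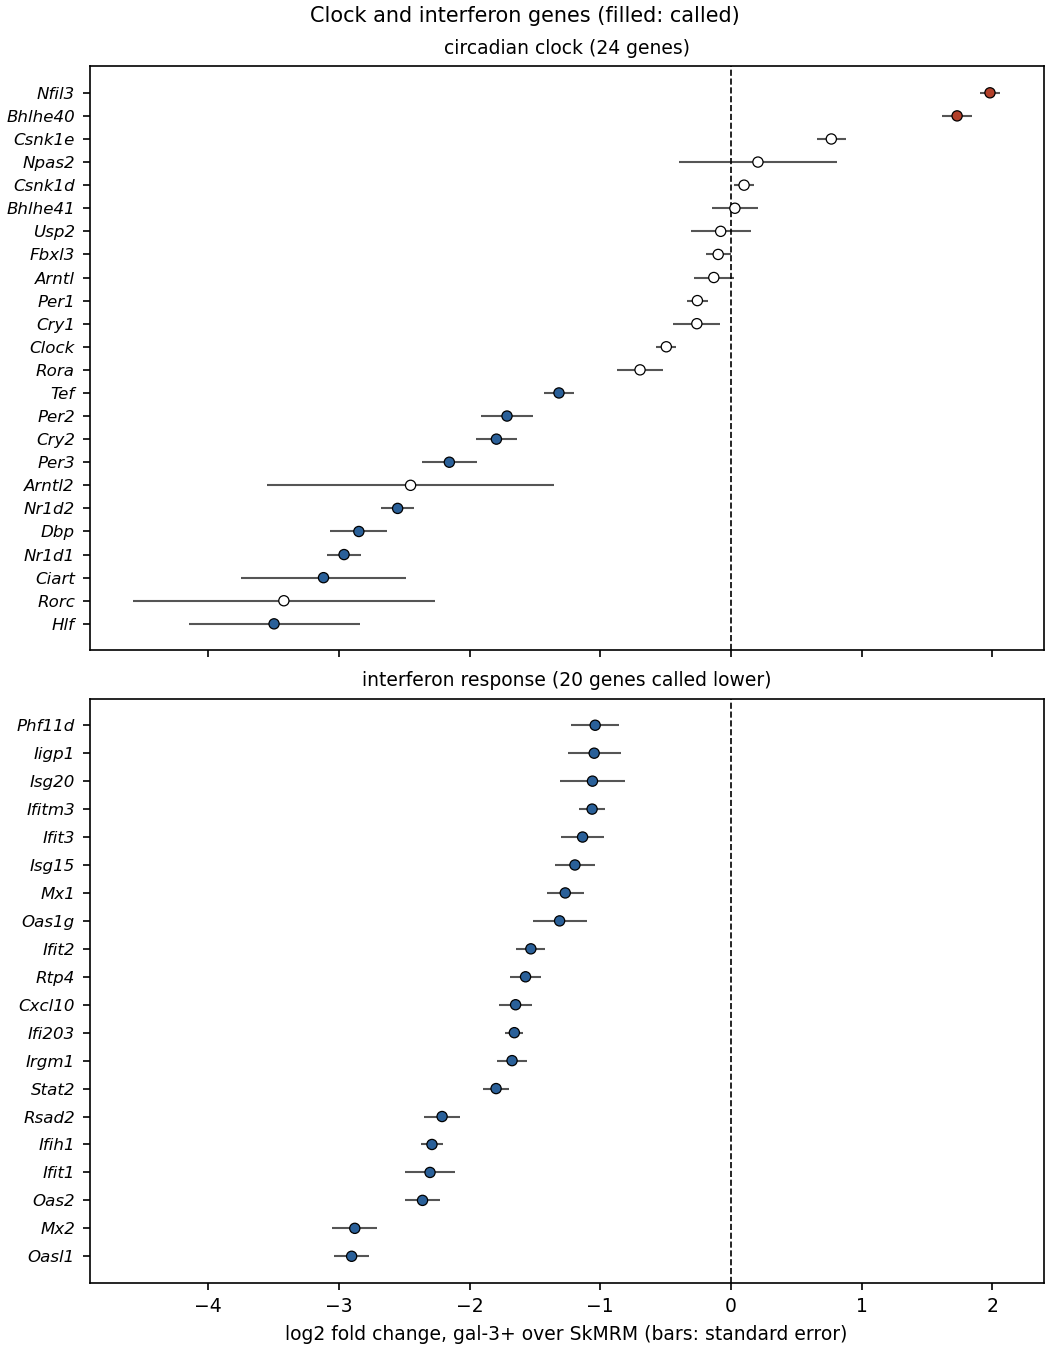
Log2 fold change of gal-3+ macrophages over SkMRMs (x axis) for the circadian clock list (top panel, 24 genes) and for the 20 interferon response genes called lower (bottom panel). Points are estimates, bars are standard errors, filled points are called and the dashed line marks no change. *Nfil3* (1.98) and *Bhlhe40* (1.73) lie to the right and *Dbp* (-2.85) and *Nr1d1* (-2.96) to the left.

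Interferon response genes were called in 1 direction. Of 45, 20 were lower and the other 25 were not called, with a median of -0.72, and 28 lay below every SkMRM library, or 62.2% against 28.1% of all genes. *Oasl1* had 2203, 2681, 2011 and 2453 normalized counts in the gal-3+ libraries, against 18785, 18487 and 15128 in the SkMRM libraries. *Ifih1*, the sensor of viral RNA also called MDA5, had 2646, 3033, 2588 and 2653 in the gal-3+ libraries, against 13046, 13341 and 13552 in the SkMRM libraries. *Stat2*, which carries the signal of type I interferon, *Mx2*, *Oas2*, *Rsad2* (viperin) and *Ifit1* fell, with log2 fold changes of -1.80, -2.88, -2.36, -2.21 and -2.30. *Irf7* was not called, at 0.24. *Ifnb1* ran beside them at 379 to 523 in gal-3+ macrophages against 2486, 3172 and 1126 in SkMRMs. Without WT3, 16 of the 45 were lower and 1 higher. The interferon site (2 copies of GAAA set 2 bases apart) was in the promoters of 21 of the 36 interferon genes that had one, and in 11 of the 15 called lower, against 3.85% of all genes. Among called genes in or out of this list, it was in 4.5% of those called higher and 5.25% of those called lower. With 250 bases before the start alone, it was in 4.35% of each. The promoter of *Ifit1*, an inhibitor of viral translation, is that of the member with the largest fall among those with a site and a mean of at least 1000. It was chosen after its values were seen and is shown with its 2 sites in capitals, at chr19:34640639-34640938 on the plus strand. Both sites lie in reverse orientation, so that they read as the reverse complement of the site.
Ifit1: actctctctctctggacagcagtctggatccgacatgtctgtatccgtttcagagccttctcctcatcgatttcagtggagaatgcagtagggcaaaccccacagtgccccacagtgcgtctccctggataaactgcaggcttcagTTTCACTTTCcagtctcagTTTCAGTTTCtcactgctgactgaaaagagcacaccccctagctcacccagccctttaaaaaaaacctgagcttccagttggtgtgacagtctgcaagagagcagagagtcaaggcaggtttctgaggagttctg

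Genes of glycolysis and hypoxia were also called in 1 direction. Of 34 genes of glycolysis and hypoxia, 17 were higher and the other 17 were not called, with a median of 0.99. With upper quartile scaling, 12 of them were higher and 1 was lower. *Slc2a1*, the glucose transporter GLUT1, had 2151, 1878, 1865 and 2299 normalized counts in the gal-3+ libraries, against 338, 307 and 269.6 in the SkMRM libraries. *Slc16a3*, which exports lactate, had 929, 978, 918 and 1272 in the gal-3+ libraries, against 95.6, 127 and 134 in the SkMRM libraries. The enzymes *Pgam1*, *Pkm* and *Ldha* rose by 2.25, 1.34 and 1.33 and the oxygen-sensing factor *Hif1a* by 1.16. *Pfkfb3*, an activator of glycolysis, had a log2 fold change of -0.91 and a fold under 2. Of the 60 nuclear genes of oxidative phosphorylation, 0 were called by limma, although 52 lay above every SkMRM library (24.2% of all genes did) and 55 had a higher level with an unadjusted p under 0.05 (25.5% of all genes did). The edgeR test on recovered reads called 1 and DESeq2 called 0. The median was 0.52. All 67 cytosolic ribosomal protein genes likewise lay above every SkMRM library, against 24.2% of all genes, with a median of 0.64, and 2 were called higher, or 1 without mdx4 or without mdx5. The mitochondrial gene *mt-Co1*, the only 1 of 13 mitochondrially encoded protein genes in the table, had a log2 fold change of -0.94. Scaling by the upper quartile lowers every log2 fold change by about the same amount and moves the median of all genes to -0.23, and the ribosomal median was then 0.52 and that of oxidative phosphorylation 0.40.

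The exporter of iron was lower and the genes of ferritin were higher. Of 28 genes of heme and iron, 6 were higher and 8 lower. *Slc40a1*, ferroportin, the exporter of iron, had 388, 445, 432 and 481 normalized counts in the gal-3+ libraries, against 4324, 4881 and 3931 in the SkMRM libraries. *Fth1*, the heavy chain of the iron store ferritin, had 108393, 103466, 104854 and 110427 in the gal-3+ libraries, against 36602, 41574 and 35534 in the SkMRM libraries. *Hmox1*, which opens the heme ring, fell by 1.63 and *Ftl1*, the light chain of ferritin, rose by 1.13. Among 39 ion channels and transporters of ions, 9 were higher and 5 lower, or 23.1 and 12.8% against 5.34 and 11.9% of all genes. They were led by the potassium channel *Kcnn4* (3.31) and by *Kcnma1* (-4.24) and the calcium channel *Trpv4* (-2.80). Of the arginine and alternative activation list 6 of 29 were higher and 7 lower. *Arg1* and *Chil3* rose by 6.38 and 6.07 and *Retnla*, often read with them as a marker of alternative activation, had 208 to 291 in gal-3+ macrophages against 10833 to 15845 in SkMRMs.

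Cell cycle genes were not higher in gal-3+ macrophages. Of 45, 2 were lower (*Kif23* and *Cenpf*) and the other 43 were not called, while 23 lay below every SkMRM library, or 51.1% against 28.1% of all genes. Without WT1, 4 were lower. *Mki67*, the proliferation marker, had 10185, 9887, 9728 and 7794 normalized counts in the gal-3+ libraries, against 15112, 17534 and 14782 in the SkMRM libraries, a log2 fold change of -0.75. Among inhibitors of the cycle and p53 targets, 5 of 29 were higher and 2 lower (1 without any 1 of mdx3, mdx5, WT1 and WT2), with *Cdkn1a* (p21) at 1.09, or 0.97 and not called with upper quartile scaling.

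Noncoding genes were lower more often than coding genes. Of 13435 protein-coding genes, 6.24% were higher and 9.91% lower, with a median log2 fold change of 0.01. Of 677 genes of unconfirmed transcription (the TEC class), 31.8% were lower and 1 gene was higher, with a median of -1.67. Long intergenic RNAs (24.2% of 396 lower), antisense RNAs (18% of 438) and sense intronic RNAs (22.6% of 115) followed. The TEC class took 0.0881 to 0.153% of a gal-3+ library, against 0.253 to 0.344% of an SkMRM library. Whether counting used the strand is not stated in the sources used here, so reads of an antisense or intronic gene and of its host cannot be told apart.

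Most neutrophil markers were not called. Of 12 neutrophil markers, 3 were higher and 1 lower, or 25 and 8.33% against 5.34 and 11.9% of all genes. Their sum was 3536 to 4376 normalized counts in gal-3+ libraries, against 2803 to 3560 in SkMRM libraries. The 3 were *Mmp8*, *Csf3r* and the surface protein *Cd177*, which had 98.7, 77.4, 109 and 136 in the gal-3+ libraries, against 5.83, 0 and 0.722 in the SkMRM libraries, and the 1 was *Mmp9*. *S100a8* and *S100a9*, abundant cytosolic proteins of neutrophils, were not called and had at most 96.5 in any of the 7. The part of neutrophils in these values was not tested. Endothelial markers summed to 23310 to 31910 in gal-3+ libraries, against 28890, 25990 and 10870 in WT1, WT2 and WT3, and 1 of 18 was called (*Fabp4*, which macrophages share), or 6 without WT1. Monocyte genes rose in 11 of 20 and fell in 1, or 2 without WT2, and resident macrophage genes fell in 20 of 25 and rose in 1 (*Cd5l*).

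Many of the genes with the largest rises over SkMRMs had higher means in MDMs of mdx mice. For 11 of those 15 genes, the mean in MDMs was above that in gal-3+ macrophages, and for 4 it was below. The share of all genes with a higher mean in MDMs was not counted, so 11 of 15 describes these genes alone. *Spp1* averaged 127705 ± 17072 normalized counts in gal-3+ macrophages (SD, n = 4), 124698 ± 44765 in MDMs (n = 3) and 264 ± 96.2 in SkMRMs (n = 3). *Trem1* averaged 783 ± 158 in gal-3+ macrophages, 4504 ± 724 in MDMs and 5.40 ± 4.54 in SkMRMs. *Acp5*, which is not among the 15, averaged 3412 ± 294 in gal-3+ macrophages, 922 ± 89.7 in MDMs and 140.5 ± 27.7 in SkMRMs. *Cd22*, also not among the 15, averaged 2281 ± 121 in gal-3+ macrophages, 392 ± 102 in MDMs and 113 ± 39.7 in SkMRMs. *F10* averaged 2013 ± 321 in gal-3+ macrophages, 17962 ± 2587 in MDMs and 25.2 ± 21.0 in SkMRMs. The comparisons of gal-3+ macrophages with these populations share the gal-3+ libraries. The means are given side by side, and MDMs were not tested against gal-3+ macrophages.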

How the data were processed

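RNA was sequenced from macrophages sorted by FACS from hindlimb muscle. Per the labels and the study's methods, the authors aligned paired reads of a stranded low-input total RNA library with TopHat2 2.0.14 to mm10, counted them per GENCODE gene with HTSeq 1.99.2 and normalized them with DESeq2 1.28.1. The deposited values are signal on a count scale, reads divided by a size factor, and 100% came out whole (tolerance 0.001) when that factor was undone. Total reads per library limit precision at low counts. The authors' normalization assumes that most genes do not differ between populations.

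Values were taken as log2(value + 1) and fitted with limma 3.58.1 (R 4.3.3, trended variance, Benjamini-Hochberg adjustment over 17001 genes) on all 10 libraries, which share 1 estimate of the spread. A fold change on this scale understates the change of low genes. Calls needed a change of 2-fold or more with adjusted p below 0.01. The test was also run on simulated data, and the outcome is not reported here. The sample titles number the libraries as biological replicates. Nothing in the sources used here says whether each came from a single animal or a pool, so p-values measure the spread between these libraries. Recovered reads were also tested with edgeR 4.0.16 and with DESeq2 1.42.0. The other alternatives were TMM and upper quartile scaling, other pseudocounts, filters and thresholds, a replicate block and each library left out in turn. Promoters came from RefSeq (GRCm38.p6).

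The members and the 70 gene lists were chosen with earlier results of these data known. Genes named are the population markers, the 15 largest rises and falls that were called (mean 100 or more, libraries apart), the 10 largest gains and losses of share, up to 4 list members with the largest change, cell type markers at 0 in a population and genes whose promoters are printed. Of 224 genes named, 81 lie outside this rule and were chosen after their values were seen. In 22 rows the gene name had been turned into a date, and these rows were kept under the name in the file.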

Additional observations from a re-analysis of the deposited data

Results flagged for a closer look

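Among the 4 gal-3+ libraries, 246 sets of values were examined for a library far from the other 3 (224 genes named above and 22 sums of cell type markers), and 12 had one, where chance gives about 1 in 20. No explanation was weighed for any of them. Library mdx5 was the highest in 5. It had 31252 normalized counts of *Il1b* (24279.7 to 24639.6 in the other gal-3+ libraries), 19341 of *Ptgs2* (15287 to 15851), 1272 of *Slc16a3* (918 to 978), 829 of *Lox* (576 to 601) and a muscle fiber marker sum of 18110 (14680 to 15210). Library mdx3 was highest for *Ifih1*, at 3033 (2588 to 2653), and lowest for *Dusp2*, at 2158 (2727 to 2782). It was the only 1 with *Ighd*, at 10.7. Library mdx1 was lowest for *Sirpb1c*, at 431 (609.5 to 624), and for the T and NK cell markers without *Il7r*, at 1574 (2084 to 2161). Library mdx4 was the only 1 with *Cd3e*, at 9.23, and had the highest sum of erythroid and platelet markers, at 1021 (219 to 253).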

How the results depend on the processing

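Of 224 named genes, 197 were called, and 194 of these kept the call with each library left out in turn. The exceptions were *Gm7325*, *Myh2* and *Fabp4*. Under other settings at the 2-fold minimum, 7 lost it. These were *Gm7325*, *Hlf*, *Myh2* and *Cdkn1a* with the replicate block, *Cdkn1a* and *Tgfb1* with upper quartile scaling, *Fabp4* and *Myh2* with a variance prior without a trend, and *Ighd* with DESeq2 on recovered reads. With a library left out, 862 to 925 genes were higher and 1476 to 2085 lower. The main fit treats all libraries as unpaired. Deviations from the group mean correlated at 0.035 and 0.015 between the gal-3+ and SkMRM libraries of numbers 1 and 3. Gal-3+ and MDM libraries share the names mdx1, mdx4 and mdx5. Whether these came from the same mice is not stated in the sources used here and was not tested. The replicate block took the column number over all 10 libraries, so it also tied WT1 to mdx1 and WT3 to mdx3. It is thus not an adjustment for mdx mice shared by gal-3+ and MDM libraries. With this block 782 genes were higher and 1174 lower. A fold of at least 4 left 363 higher and 1171 lower. The edgeR test on recovered reads called 997 higher and 1794 lower, and DESeq2 959 and 2246. The direction of some uncalled genes turned. The log2 fold change of *Nrp1* was 0.043 with TMM, 0.050 with edgeR and -0.072 to 0.052 with a library left out. That of *S100a9* was 0.012 with DESeq2, 0.081 with edgeR and -0.67 to 0.34 with a library left out. That of *Irf7* was -0.28 with the block and -0.13 to 0.56 with a library left out. With a library left out, *Arntl* ranged from -0.32 to 0.0021 and *Cd3e* from -1.5 to 0.84, and *Uty*, at 2.14 with all libraries, from -0.11 (without WT3) to 3.33. The cause was not tested. With 250 bases before the start alone, the PU.1 site was in 6.75% of promoters of genes called higher, 2.45% of genes called lower and 3.13% of all genes. Values of a few reads, such as *Gm7325* or *Cd209b* in 1 population, are limited by depth.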
